A study of Mus musculus with 2 samples.

Results

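The cells described here are the epiblast cells of the mouse blastocyst at embryonic day 4.5, divided by how much RNA they held for Ldha and Bnip3. Of 6425 cell barcodes that passed the filters in the whole series, 1097 came from blastocysts and 252 of these met the epiblast rule. A unique molecular identifier (UMI) stands for 1 captured RNA molecule. Kept barcodes had 1000 UMIs or more, 500 genes or more with a UMI, and a mitochondrial share of no more than 25%. An epiblast cell had at least 5 UMIs of Nanog, Tdgf1, Sox2, Fgf4, Gdf3, Klf2 and Trh together. That sum also had to be at least 2 times the summed UMIs of 5 primitive endoderm genes (Gata4, Gata6, Sox17, Pdgfra, Foxq1) and of 4 trophectoderm genes (Krt18, Tspan8, Dppa1, Gata3). The median cell held 45.5 such UMIs; 2 members stood at 5, and 3 cells with 4 were left out. The 2 groups compared were then chosen by the measured Ldha and Bnip3 values themselves: cells were ranked by their UMIs of both genes scaled to a total of 1000000 UMIs per cell (CPM), called the score from here on. The 84 cells with the highest scores are called Ldha-high, the 84 with the lowest Ldha-low, and the 84 between them intermediate.

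The study measured polyadenylated RNA of single cells with a BD Rhapsody whole transcriptome kit in 2 mouse libraries. The blastocyst library was made from whole B6C3F1 embryos at day 4.5, and the embryoid library from aggregates of embryonic stem (ES) cells with XTE cells. The ES cells were derived from Lifeact-RFPRuby mice, and reprogramming of a Gata6-H2B:venus ES line gave the XTE cells. Both were dissociated with TrypLE, and the number of embryos pooled is not given in the sources used here. All Ldha-high and Ldha-low cells therefore share 1 library, 1 strain and 1 dissociation. Cells of 1 library are not replicates, so no p-value or standard error is given. Intervals are exact 95% intervals that cover counting error alone, and a gene is called higher or lower here when its ratio passes 1.5-fold.

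Glycolysis splits glucose into pyruvate. Lactate dehydrogenase, whose A subunit is encoded by Ldha, reduces pyruvate to lactate and so regenerates the cofactor that glycolysis needs. Bnip3 encodes a protein of the outer mitochondrial membrane that acts in mitophagy, the removal of mitochondria. Both genes are well-known targets of the hypoxia-inducible factors (HIF), as are most glycolysis genes. Around implantation the mouse epiblast leaves the naive state of pluripotency, and pluripotent cells in culture are known to rely more on glycolysis as they do so.

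The promoters of Ldha and Bnip3, and of the lactate exporter gene Slc16a3, are shown because the ranking rests on the first pair and Slc16a3 had the highest ratio among the glycolysis genes. Each window runs from 250 bases before to 50 after a transcription start in RefSeq (build GRCm38.p6), and is written from the 5′ to the 3′ end of the gene's strand. Capitals mark the HIF core motif ACGTG or GCGTG on either strand, so that CACGT and CACGC are matches on the opposite strand and CACGTG is a match on both. Ldha lies at chr7:46842274-46855627, Bnip3 at chr7:138890836-138909506 and Slc16a3 at chr11:120948484-120959000.
Ldha, chr7:46845554-46845853, plus strand: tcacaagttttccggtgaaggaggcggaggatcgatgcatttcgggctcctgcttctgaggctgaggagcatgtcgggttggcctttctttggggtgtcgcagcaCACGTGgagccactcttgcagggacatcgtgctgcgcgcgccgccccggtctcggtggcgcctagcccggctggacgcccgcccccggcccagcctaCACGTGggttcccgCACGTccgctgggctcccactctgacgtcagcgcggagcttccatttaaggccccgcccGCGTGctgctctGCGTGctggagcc
Bnip3, chr7:138909457-138909756, minus strand: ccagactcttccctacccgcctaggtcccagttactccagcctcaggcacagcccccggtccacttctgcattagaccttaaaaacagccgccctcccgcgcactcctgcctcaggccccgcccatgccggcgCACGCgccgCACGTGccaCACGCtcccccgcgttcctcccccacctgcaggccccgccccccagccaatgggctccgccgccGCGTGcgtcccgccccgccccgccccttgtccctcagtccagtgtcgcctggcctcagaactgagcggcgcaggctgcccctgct
Slc16a3, chr11:120948817-120949116, plus strand: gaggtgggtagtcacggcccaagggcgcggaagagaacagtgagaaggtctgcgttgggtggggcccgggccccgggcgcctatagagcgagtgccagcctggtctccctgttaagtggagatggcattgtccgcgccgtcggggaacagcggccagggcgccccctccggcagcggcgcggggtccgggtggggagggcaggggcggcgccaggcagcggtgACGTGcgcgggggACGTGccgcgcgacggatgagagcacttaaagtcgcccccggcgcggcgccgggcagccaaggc
The Ldha window, the first of 2 listed for the gene, held 7 matches in 5 runs, the Bnip3 window 5 matches in 4 runs and the Slc16a3 window 2. At least 1 match was present in 43.8% of all 32851 promoter windows of the same length and at least 2 in 20.6%. Of the windows of the 19 glycolysis genes listed for this work, 21 of 28 (75%) held a match, over 18 genes found in the table. The share was 25 of 30 windows (83.3%) for HIF targets outside glycolysis and 6 of 9 (66.7%) for naive pluripotency genes. A match is a string of letters and not evidence of binding.

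The values of Ldha and Bnip3 chose the cells and are given as a description. In Ldha-high cells the score ranged from 299 to 2553 CPM with a median of 731, in intermediate cells the median was 151, and in every Ldha-low cell it was 0. The last Ldha-high cell stood at 299 CPM and the first cell below it at 275. In all, 92 of the 252 cells had no UMI of either gene. Of these, 84 make up the Ldha-low cells and the other 8, taken by barcode order, are intermediate. An Ldha-high cell held a median of 8 Ldha UMIs (0 to 40) and 2 Bnip3 UMIs (0 to 15), so Ldha carries most of the ranking. Ldha was detected in 98.8% of Ldha-high cells, against 69.0% of intermediate cells. In the same library it was detected in 68.5% of primitive endoderm cells (median depth 9645 UMIs) and 17.6% of trophectoderm cells (median depth 8653 UMIs). Bnip3 was detected in 73.8% of Ldha-high, 30.8% of primitive endoderm and 84.5% of trophectoderm cells.

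The groups also differed in depth. Ldha-high cells had a median of 13377 UMIs and 3974 detected genes per cell, against 9645 UMIs and 3573 genes in intermediate cells and 8151 UMIs and 3184 genes in Ldha-low cells. Their median mitochondrial share was 8.70%, against 10.7% in Ldha-low cells. Scrublet called 3 Ldha-high cells and 0 of the other cells doublets, and 4 of the 252 barcodes also occur in the embryoid library. The part of these differences in the results was not tested. Cells were also ranked within bins of depth, and those values stand beside the main sums of glycolysis, naive and Nodal genes. Levels of other genes are also in CPM, from the UMIs summed over the cells of a group and their total without Ldha and Bnip3. These totals were 1070318 UMIs for Ldha-high, 887247 for intermediate and 689199 for Ldha-low cells.

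The epiblast label held against markers that the rule did not use. The 12 further epiblast markers, Pou5f1, Utf1 and Zfp42 among them, summed to 5507 CPM in Ldha-high, 6423 CPM in intermediate and 6609 CPM in Ldha-low cells, against 3177 CPM in primitive endoderm and 3693 CPM in trophectoderm cells. The 16 further primitive endoderm markers stood at 995 CPM in Ldha-high and 1349 CPM in Ldha-low cells, against 21210 CPM in primitive endoderm cells. The 16 further trophectoderm markers stood at 258 CPM in Ldha-high and 361 CPM in Ldha-low cells, against 7864 CPM in trophectoderm cells. Foxa2 was at 0 in Ldha-high cells, and Cubn, Krt7, Enpp1 and Entpd1 were at 0 in both groups. Blood and fibroblast markers summed to 8 UMIs or fewer in either group. The epiblast, primitive endoderm and trophectoderm markers outside the rule were, in sum, lower in Ldha-high than in Ldha-low cells. The 4 trophectoderm genes of the rule ran the other way, at 26.2 CPM in Ldha-high and 11.6 CPM in Ldha-low cells, against 5699 CPM in trophectoderm cells. The 5 primitive endoderm genes of the rule stood at 26.2 CPM in Ldha-high and 49.3 CPM in Ldha-low cells, against 3451 CPM in primitive endoderm cells. The part of these markers in the results was not tested. Of the 16 further trophectoderm markers, only 2 reached 100 UMIs, 1 of them higher and 1 lower. Among all genes with 100 UMIs 8.65% were higher and 10.3% lower, and nothing is read from so small a count. The median log2 ratio of these 2 markers was 0.23, against -0.49 for the sum of the 16.

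**Figure D1:**
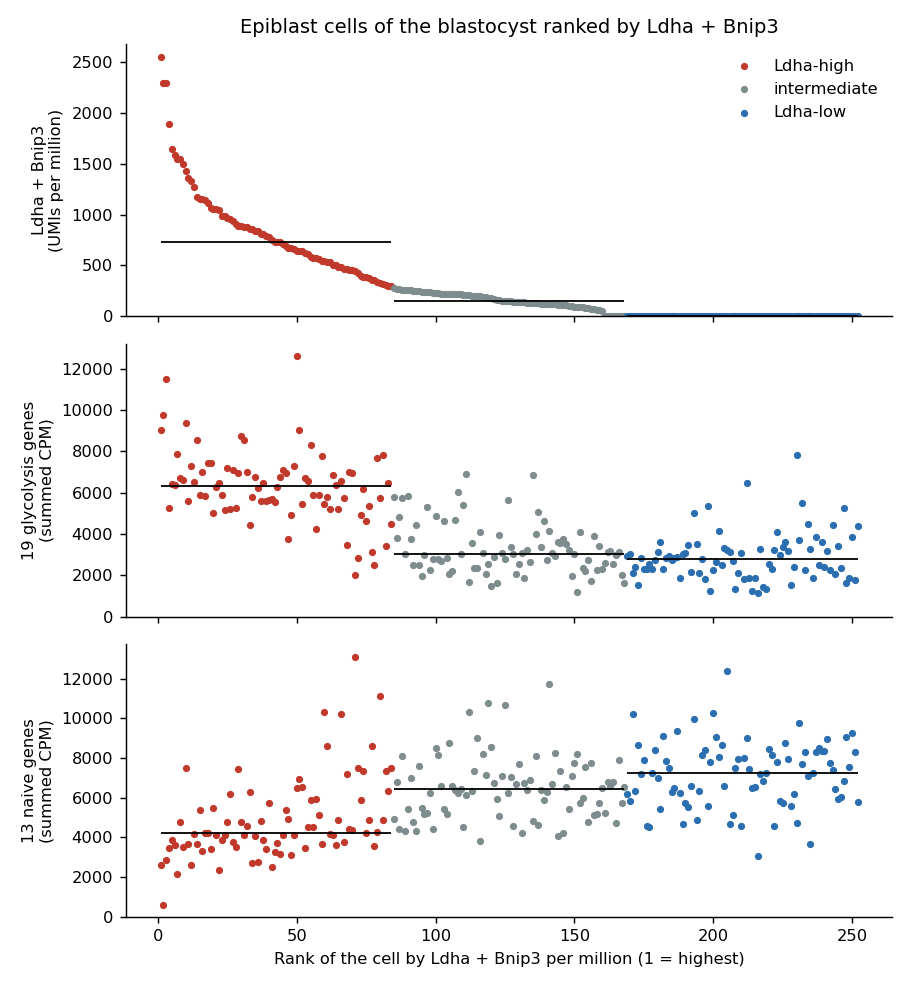
Each point is 1 of the 252 epiblast cells, ranked on the x axis from the highest score; the y axes give the score in CPM (top), the summed level of 19 glycolysis genes (middle) and of 13 naive pluripotency genes (bottom) in CPM, and black lines are medians of 84 cells. Glycolysis has a median of 6319 CPM in Ldha-high and 2762 CPM in Ldha-low cells, and the naive genes have 4236 CPM in Ldha-high and 7244 CPM in Ldha-low cells.

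Across all genes, 3354 had at least 100 UMIs over the Ldha-high and Ldha-low cells. Of these, 8.65% were called higher in Ldha-high cells and 10.3% lower, and the median log2 ratio was 0.02. Of the 28 lists examined, glycolysis had the highest summed log2 ratio. Of its 19 genes, 13 reached 100 UMIs, 9 of these were higher and 0 lower, with a median log2 ratio of 1.00. Together the 19 genes made up 6352 CPM in Ldha-high cells, 3309 CPM in intermediate cells and 2806 CPM in Ldha-low cells, a log2 ratio of 1.18 (1.11 to 1.25), or 1.00 when cells were ranked within depth bins. Cell by cell the sum ran from 1997 to 12605 CPM in Ldha-high and from 1135 to 7805 CPM in Ldha-low cells. The groups overlapped, yet 82 of 84 Ldha-high cells lay above the median of Ldha-low cells.

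The steps of the pathway differed in size. Slc2a1, the widely expressed glucose transporter, stood at 143 CPM in Ldha-high and 71.1 CPM in Ldha-low cells (log2 ratio 1.00), while Slc2a3, the high-affinity transporter, stood at 292 CPM in Ldha-high and 221 CPM in Ldha-low cells (0.40, 0.12 to 0.69). Hk2, the hexokinase that traps glucose in the cell, went the other way, at 166 CPM in Ldha-high and 219 CPM in Ldha-low cells (-0.40, -0.72 to -0.08). Hk2 was thus the single gene of the 13 with a ratio below 0. Gpi1, the next enzyme, had a log2 ratio of 0.53.

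The middle of the pathway runs from phosphofructokinase to triose phosphate isomerase. Pfkl, the liver subunit of phosphofructokinase, a main control point, stood at 90.6 CPM in Ldha-high and 17.4 CPM in Ldha-low cells (log2 ratio 2.32, 1.51 to 3.38), and its platelet counterpart Pfkp had a log2 ratio of 0.73. Aldoa, the aldolase that splits the 6-carbon sugar, had the most UMIs of the list, at 2346 CPM in Ldha-high, 977 CPM in intermediate and 746 CPM in Ldha-low cells (1.65, 1.52 to 1.79). A single Ldha-high cell held between 354 and 4595 CPM of Aldoa (median 2361) and a single Ldha-low cell between 0 and 3863 CPM (median 625), and 81 of 84 Ldha-high cells exceeded the Ldha-low median. Tpi1, which interconverts the 3-carbon products, stood at 120 CPM in Ldha-high and 17.4 CPM in Ldha-low cells (2.71, 1.93 to 3.77), from 128 UMIs in Ldha-high and 12 in Ldha-low cells.

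The later steps lead from the 3-carbon sugars to pyruvate. Gapdh, whose transcript often serves as a reference, stood at 812 CPM in Ldha-high and 585 CPM in Ldha-low cells (log2 ratio 0.47, 0.30 to 0.65), short of 1.5-fold. Pgk1, the first step that yields ATP, stood at 104 CPM in Ldha-high and 21.8 CPM in Ldha-low cells (2.20, 1.47 to 3.14). Eno1, enolase, stood at 551 CPM in Ldha-high and 152 CPM in Ldha-low cells (1.85, 1.55 to 2.17), but the near-identical copy listed as Gm5506, which RefSeq names Eno1b, showed almost the same level (555 CPM in Ldha-high and 157 CPM in Ldha-low cells), so the assignment of reads to either is uncertain. Pkm, pyruvate kinase, stood at 1127 CPM in Ldha-high and 441 CPM in Ldha-low cells (1.35, 1.17 to 1.54). In per-cell terms Pkm had a median of 1058 CPM in Ldha-high cells and 405 CPM in both other groups, so by this median the intermediate cells did not differ from Ldha-low cells.

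Lactate transport gave the sharpest contrast of the pathway, although from few counts. Slc16a3, the lactate exporter also known as Mct4, had 79 UMIs in Ldha-high cells and 1 in Ldha-low cells (73.8 and 1.45 CPM in the same order, log2 ratio 4.93, 3.15 to 10.99). Being under 100 UMIs, it is not among the 13 genes counted above, and with 10 CPM added in place of 1 its log2 ratio was 2.87. It was detected in 47.6% of Ldha-high, 9.52% of intermediate and 1.19% of Ldha-low cells, against 9.41% of all primitive endoderm and 4.81% of all trophectoderm cells. Ranked by Bnip3 alone, its log2 ratio was 1.19. After thinning each cell to 5000 UMIs the shares were 19.7% of 76 Ldha-high cells and 0 of 70 Ldha-low cells, with an exact upper limit of 5.13%. The contrast was not confined to epiblast. Ranked by the same score, primitive endoderm held 48 Slc16a3 UMIs in its high and 0 in its low cells (log2 ratio 5.09). Trophectoderm held 23 in its high and 1 in its low cells (3.41). Cells of the embryoid library that met the epiblast rule held 42 in high and 15 in low cells. Slc16a1, the other monocarboxylate transporter on the list, stood at 179 CPM in Ldha-high and 112 CPM in Ldha-low cells (0.68, 0.29 to 1.08). The remaining members had low counts: Aldoc had 41 and 5 UMIs, Hk1 12 and 6, Pfkm 12 and 0, Pgam1 8 and 0, and Eno2 0 and 2 in Ldha-high and Ldha-low cells.

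**Figure D2:**
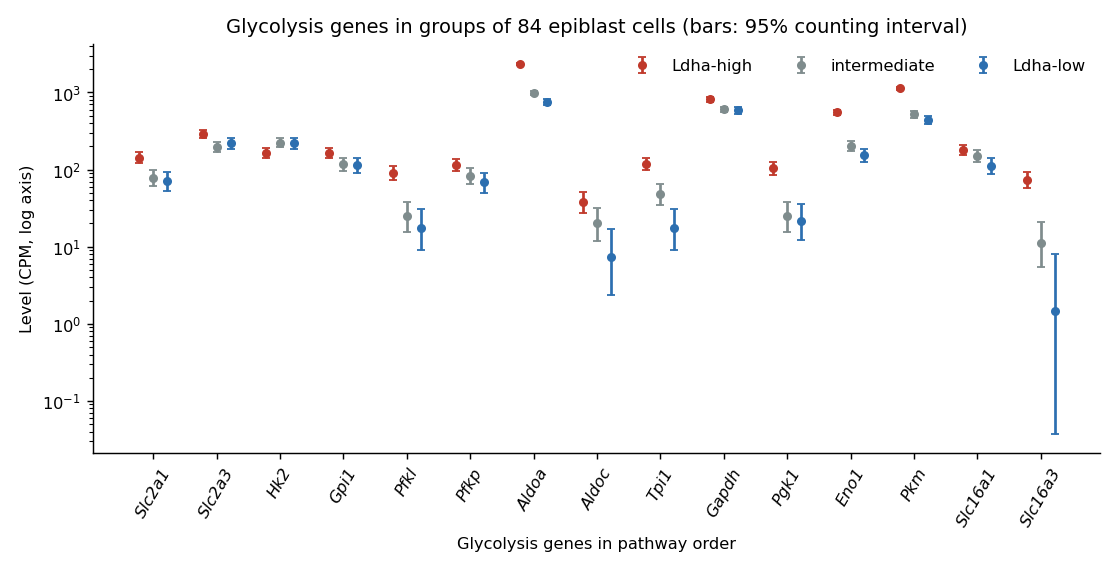
Level in CPM (log axis) of the glycolysis genes with at least 20 UMIs, in pathway order from glucose uptake to lactate export, in Ldha-high, intermediate and Ldha-low cells (84 cells each), with exact 95% Poisson intervals. Slc16a3, Tpi1, Pfkl, Aldoc and Pgk1 show the widest gaps between Ldha-high and Ldha-low cells, and Hk2 is the gene with the order turned round. For Aldoc, 1 cell holds 26.1% of the UMIs of these 2 groups.

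The other HIF targets differed less in sum. Of 24 such genes in the file, 7 reached 100 UMIs, of which 2 were higher and 1 lower in Ldha-high cells, with a median log2 ratio of 0.49. Beside this, 8.65% of all measured genes were called higher and 10.3% lower, and nothing is read from so small a count. Their sum was 1488 CPM in Ldha-high and 1333 CPM in Ldha-low cells (log2 ratio 0.16, 0.04 to 0.28). Most members nonetheless had a ratio above 0: 21 of the 24 did, and Ak4, Bnip3l and Kdm3a were the exceptions. Of the 7 with at least 100 UMIs, 4 lay above 0, beside 1769 of all 3354 measured genes. Ak4 held a large share of the UMIs, and without it, a list chosen after its value was seen, the sum was 1263 CPM in Ldha-high and 892 CPM in Ldha-low cells (0.50, 0.36 to 0.64). Cell by cell, 54 of 84 Ldha-high cells lay above the Ldha-low median. P4ha1, a collagen prolyl hydroxylase subunit, stood at 86.9 CPM in Ldha-high and 29.0 CPM in Ldha-low cells (1.55, 0.87 to 2.36). Primitive endoderm cells held P4ha1 at 404 CPM over all cells, and the same ranking gave it a log2 ratio of 0.26 there. Higd1a, a mitochondrial protein of the hypoxia response, was the other higher gene, at 85.0 CPM in Ldha-high and 49.3 CPM in Ldha-low cells (0.77).

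Ak4, a mitochondrial adenylate kinase, was the lower one, at 225 CPM in Ldha-high, 456 CPM in intermediate and 441 CPM in Ldha-low cells (log2 ratio -0.97, -1.22 to -0.72). Pdk1, which restrains pyruvate entry into mitochondria, stood at 71.0 CPM in Ldha-high and 49.3 CPM in Ldha-low cells (0.52, -0.08 to 1.15). Mif, Bnip3l and Kdm3a had log2 ratios of 0.49, -0.30 and -0.19, and none of the 3 passed 1.5-fold. Bnip3l is the close relative of Bnip3 in mitophagy, and its interval (-0.82 to 0.22) spans 0. Kdm3a is a histone demethylase gene.

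Among HIF targets under 100 UMIs, Plod2 had 54 UMIs in Ldha-high and 6 in Ldha-low cells (log2 ratio 2.41, 1.32 to 4.04). Egln3, the HIF prolyl hydroxylase that is itself induced by hypoxia, had 35 in Ldha-high and 6 in Ldha-low cells (1.80, 0.64 to 3.45). Over all primitive endoderm cells Plod2 stood at 656 CPM and Egln3 at 2.7 CPM. The same ranking there gave log2 ratios of 0.41 and 1.97 in that order. Ankrd37 had 22 UMIs in Ldha-high cells and 1 in Ldha-low cells (3.14, 1.20 to 9.19). Vegfa, the vascular growth factor, had 23 UMIs in Ldha-high and 13 in Ldha-low cells (0.18, -0.85 to 1.29). The remaining 13, with 1 to 50 UMIs in Ldha-high and 0 to 27 in Ldha-low cells, were Egln1, Ero1l, P4ha2, Ddit4, Adm, Ndrg1, Car9, Mxi1, Fam162a, Pfkfb3, Pfkfb4, Bhlhe40 and Narf. All 17 had a ratio above 0, against 43.6% of all 11698 detected genes under 100 UMIs. The genes of the HIF system itself differed little: Hif1a stood at 62.6 CPM in Ldha-high and 53.7 CPM in Ldha-low cells, Arnt at 65.4 CPM in Ldha-high and 75.5 CPM in Ldha-low cells, and Epas1 at 49.5 CPM in Ldha-high and 47.9 CPM in Ldha-low cells. The 6 regulators together had a log2 ratio of -0.06 (-0.31 to 0.20). These are RNA levels, while HIF activity is known to be set mostly by protein stability, which was not measured.

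Downstream of pyruvate the differences were small. Among all measured genes 8.65% were called higher in Ldha-high cells and 10.3% lower. The share called higher was 7.69% for the tricarboxylic acid cycle and 8% for the nuclear-encoded respiratory chain, near that of all genes. Nothing is read from the few genes called in the lists of this paragraph. The 3 measured genes of pyruvate entry were neither higher nor lower (summed log2 ratio -0.09, -0.24 to 0.07); Pdha1 stood at 255 CPM in Ldha-high and 273 CPM in Ldha-low cells. Of 13 genes of the tricarboxylic acid cycle, only Fh1 was higher (log2 ratio 0.87, 0.26 to 1.55), and Idh2 had a log2 ratio of -0.57. The 25 nuclear-encoded respiratory chain genes summed to 14213 CPM in Ldha-high and 11989 CPM in Ldha-low cells (0.25, 0.21 to 0.28), with Uqcrq (0.85) and Uqcrh (0.81) of complex III past 1.5-fold. The mitochondrially encoded chain genes ran the other way (-0.33, -0.34 to -0.32; 81907 CPM in Ldha-high and 102959 CPM in Ldha-low cells), with 0 of 8 past 1.5-fold. Among cells with a mitochondrial share of at most 10%, that ratio was -0.01. Of the pentose phosphate genes, Pgd was higher (0.68) and Rpe lower (-0.61). Of 8 mitophagy and autophagy genes, Sqstm1 (0.76) and Fundc1 (0.61) were higher and Ulk1, the kinase that starts autophagy, was lower (178 CPM in Ldha-high and 335 CPM in Ldha-low cells, -0.91).

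The naive pluripotency genes went the other way. All 13 reached 100 UMIs, of which 8 were lower in Ldha-high cells and 0 higher, against a background of 10.3% lower, and their median log2 ratio was -0.69. Their sum was 4537 CPM in Ldha-high, 6359 CPM in intermediate and 7068 CPM in Ldha-low cells. That is a log2 ratio of -0.64 (-0.70 to -0.58), or -0.49 when cells were ranked within depth bins. The list is not confined to epiblast: over all their cells, primitive endoderm stood at 4159 CPM and trophectoderm at 4666 CPM. Cell by cell the sum ran from 574 to 13094 CPM in Ldha-high and from 3081 to 12372 CPM in Ldha-low cells. The ranges overlapped, and 82 of 84 Ldha-low cells lay above the Ldha-high median. The single highest naive sum belonged to an Ldha-high cell.

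Tfcp2l1, a naive transcription factor downstream of LIF signalling, stood at 205 CPM in Ldha-high, 518 CPM in intermediate and 666 CPM in Ldha-low cells (log2 ratio -1.70, -1.94 to -1.47). Its per-cell median was 144 CPM in Ldha-high cells (0 to 2717) and 669 CPM in Ldha-low cells (0 to 2190), and 17 Ldha-high cells had none, against 5 Ldha-low cells. Klf4, another target of LIF signalling, stood at 440 CPM in Ldha-high and 1119 CPM in Ldha-low cells (-1.34, -1.51 to -1.18). Prdm14, which restrains FGF signalling and DNA methylation, stood at 38.3 CPM in Ldha-high and 141 CPM in Ldha-low cells (-1.85, -2.44 to -1.34). These 3 genes gave the lowest ratios of the list.

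Fbxo15 followed at a log2 ratio of -1.04, Tbx3 at -0.82, Esrrb at -0.72, Nr5a2 at -0.69 and Zfp42 at -0.59. Esrrb stood at 270 CPM in Ldha-high and 445 CPM in Ldha-low cells. Nr5a2, an orphan nuclear receptor gene with 66 UMIs in Ldha-high and 69 in Ldha-low cells, turned to 0.18 when every cell was thinned to 5000 UMIs. Tcl1, Klf5 and Dppa3 had log2 ratios of -0.50, -0.44 and -0.44, and Dppa5a, the most abundant member at 2192 CPM in Ldha-high and 2432 CPM in Ldha-low cells, had -0.15. Nr0b1, an orphan receptor of the pluripotency network, was the single member above 0 (0.56, 0.09 to 1.05). The rule genes Nanog (192 CPM in Ldha-high and 476 CPM in Ldha-low cells) and Sox2 (448 CPM in Ldha-high and 875 CPM in Ldha-low cells) also stood lower in Ldha-high cells. Since all members had to hold at least 5 UMIs of the 7 epiblast genes, these values are description.

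Genes of the formative state, which follows the naive one, differed less. Of 14 core and formative genes, 6 reached 100 UMIs, 1 was higher and 0 lower in Ldha-high cells, beside 8.65% higher and 10.3% lower among all measured genes, and the median log2 ratio was 0.44. Nothing is read from so small a count. The sum was 3540 CPM in Ldha-high and 2600 CPM in Ldha-low cells (0.45, 0.36 to 0.53), and 71 of 84 Ldha-high cells lay above the Ldha-low median. Dnmt3b, a de novo DNA methyltransferase gene expressed in the post-implantation epiblast, was the higher gene. It stood at 541 CPM in Ldha-high, 339 CPM in intermediate and 326 CPM in Ldha-low cells (0.73, 0.50 to 0.96). Other lineages held Dnmt3b too. By the same ranking it stood at 962 CPM in high and 906 CPM in low primitive endoderm cells, and at 278 and 535 CPM in trophectoderm. Utf1 stood at 1172 CPM in Ldha-high and 820 CPM in Ldha-low cells (0.51), and Otx2, a driver of the formative state, at 181 CPM in Ldha-high and 129 CPM in Ldha-low cells (0.49, 0.12 to 0.87). Below 100 UMIs, Etv4, Dnmt3a and Pou5f1 had 61 and 8, 54 and 14, and 72 and 21 UMIs in Ldha-high and Ldha-low cells. The later markers were nearly undetected, with 5 and 1 UMIs of Fgf5 and 6 and 3 of Pou3f1 in Ldha-high and Ldha-low cells.

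The DNA methylation and Nodal lists held genes on either side of 0. Of 5 measured DNA methylation genes, 1 was higher and 2 were lower in Ldha-high cells. Among all measured genes 8.65% were called higher and 10.3% lower, and nothing is read from so small a count. The sum of the list had a log2 ratio of -0.21 (-0.32 to -0.10). It leaves out Dnmt3a and Dnmt3b, which were placed in the core and formative list. These had 54 and 14, and 579 and 225 UMIs in Ldha-high and Ldha-low cells, so the sum does not stand for all DNA methylation genes. Tet1, which oxidises methylated cytosine, stood at 244 CPM in Ldha-high and 602 CPM in Ldha-low cells (log2 ratio -1.30, -1.53 to -1.08), and Tet2 at 84.1 CPM in Ldha-high and 284 CPM in Ldha-low cells (-1.75, -2.13 to -1.39). Dnmt3l, the cofactor of the de novo methyltransferases, stood at 771 CPM in Ldha-high and 419 CPM in Ldha-low cells (0.88, 0.68 to 1.08), while the maintenance pair Dnmt1 and Uhrf1 had 0.06 and -0.17. Lefty2, a secreted Nodal inhibitor induced by Nodal itself, stood at 180 CPM in Ldha-high, 583 CPM in intermediate and 656 CPM in Ldha-low cells (-1.86, -2.11 to -1.62). It varied widely among cells, from 0 to 1923 CPM in Ldha-high and from 0 to 4360 CPM in Ldha-low cells, with none in 39 Ldha-high and 28 Ldha-low cells. Lefty1 had 18 UMIs in Ldha-high and 52 in Ldha-low cells (-2.10, -3.03 to -1.37), and Smad7, an inhibitor of signalling in the same family, stood at 43.0 CPM in Ldha-high and 87.1 CPM in Ldha-low cells. Nodal itself stood at 73.8 CPM in Ldha-high and 95.8 CPM in Ldha-low cells (-0.37, -0.87 to 0.12). Pcsk6, a convertase that processes Nodal precursors, had 0.15, and Skil, a repressor of SMAD signalling, had 59 UMIs in Ldha-high and 25 in Ldha-low cells (0.59, -0.09 to 1.34). The Nodal list as a whole had a log2 ratio of -1.12 (-1.28 to -0.95), or -0.58 within depth bins. Lefty2 alone held 193 of the 528 UMIs of the list in Ldha-high and 452 of the 738 in Ldha-low cells. The sum therefore rests largely on Lefty2, and the median log2 ratio of the measured genes was -0.69. Of these 4 genes, 2 were lower and 0 higher, and nothing is read from this count either.

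**Figure D3:**
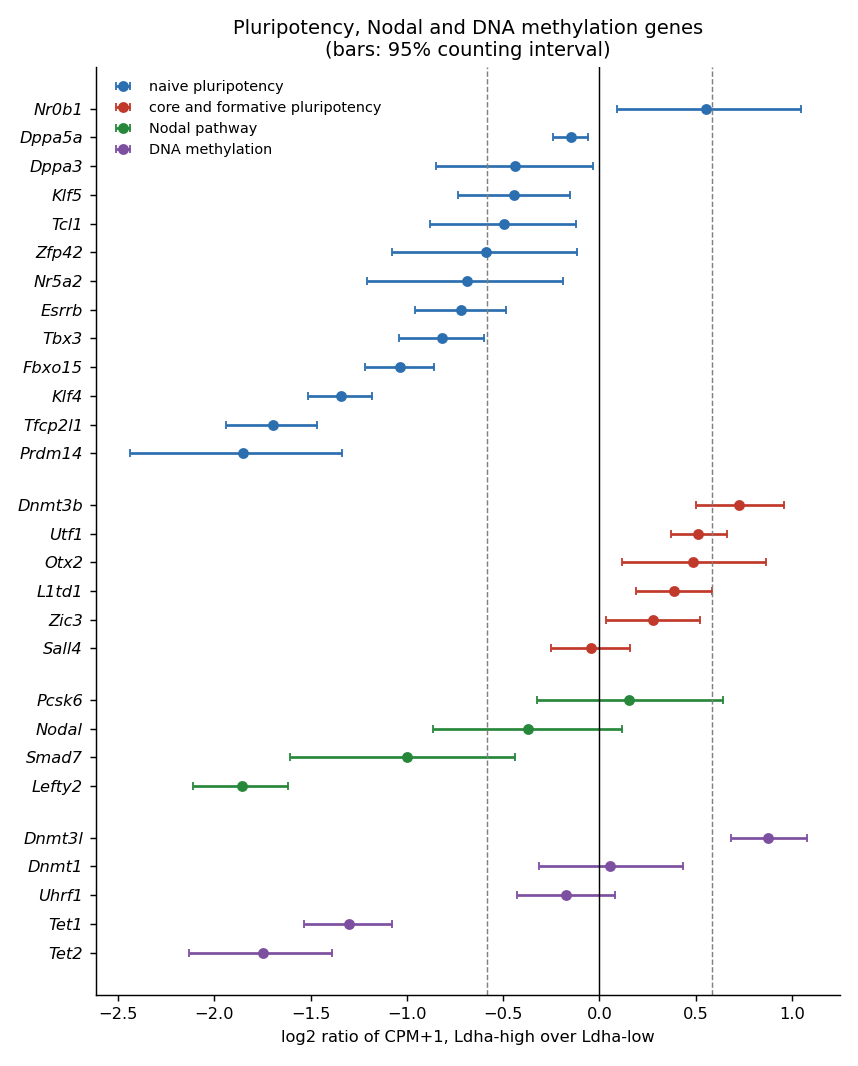
Log2 ratio of CPM+1, Ldha-high over Ldha-low cells, for each gene with at least 100 UMIs of 4 lists, with exact 95% intervals of the ratio of counts; dashed lines mark 1.5-fold either way. Of 13 naive genes, 12 lie left of 0 and Nr0b1 alone lies right of it, while 5 of 6 core and formative genes lie right of 0.

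Single genes outside the lists showed the range of the contrast. The 12 highest by the rule for named genes were Tpi1, Pfkl, Pgk1, Cldn6, Mt1, Twf2, Basp1, Eno1, Mt2, Aldoa, Insig1 and Fam188a, so 5 of the 12 are glycolysis genes. The most abundant of the others were the metallothioneins, which bind zinc and copper. Mt1 stood at 3652 CPM in Ldha-high, 1588 CPM in intermediate and 952 CPM in Ldha-low cells (log2 ratio 1.94, 1.82 to 2.06), and Mt2 at 6669 CPM in Ldha-high, 3604 CPM in intermediate and 2091 CPM in Ldha-low cells (1.67, 1.59 to 1.76). In single cells Mt1 ran from 0 to 12352 CPM (median 3253) in Ldha-high and from 0 to 4063 CPM (median 742) in Ldha-low cells, and 71 of 84 Ldha-high cells exceeded the Ldha-low median. Trophectoderm cells ranked by the same score held Mt1 at 6948 CPM in their high and 7036 CPM in their low group. Beside this, trophectoderm markers outside the rule stood at 258 CPM in Ldha-high and 361 CPM in Ldha-low epiblast cells, and the trophectoderm genes of the rule at 26.2 CPM in Ldha-high and 11.6 CPM in Ldha-low epiblast cells. Their part in the Mt1 difference was not tested.

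Cldn6, an early epithelial claudin, stood at 130 CPM in Ldha-high and 30.5 CPM in Ldha-low cells (log2 ratio 2.06, 1.42 to 2.83). Basp1, a membrane-associated signalling protein gene, stood at 335 CPM in Ldha-high and 90.0 CPM in Ldha-low cells (1.89, 1.51 to 2.31), and Twf2, which caps actin filaments, at 102 CPM in Ldha-high and 26.1 CPM in Ldha-low cells (1.92, 1.24 to 2.77). Fam188a stood at 101 CPM in Ldha-high and 31.9 CPM in Ldha-low cells. At the other end stood Pros1, Aqp3, Fancm, Lefty2, Prdm14, Tet2, Zfhx2, Tfcp2l1, Mapt, Stat3, Baz2b and Vps54. Pros1, the anticoagulant protein S gene, had the lowest ratio, at 21.5 CPM in Ldha-high and 144 CPM in Ldha-low cells (-2.69, -3.46 to -2.07). Aqp3, a water and glycerol channel, stood at 53.3 CPM in Ldha-high and 199 CPM in Ldha-low cells (-1.88), and Fancm, a DNA repair factor of the Fanconi pathway, at 66.3 CPM in Ldha-high and 245 CPM in Ldha-low cells (-1.87).

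The sums of the growth, S phase and cholesterol lists were higher in Ldha-high cells by a smaller margin than glycolysis. Of 13 measured S phase genes, 5 were higher in Ldha-high cells and 0 lower, beside 8.65% higher and 10.3% lower among all measured genes. The S phase sum was 3609 CPM in Ldha-high and 2676 CPM in Ldha-low cells (log2 ratio 0.43, 0.35 to 0.51). Ccne1, which drives entry into S phase, stood at 157 CPM in Ldha-high and 62.4 CPM in Ldha-low cells (1.32, 0.84 to 1.85), Slbp had 1.01 and Pcna 0.95. Of 15 G2/M genes, 2 were higher (Ccna2 at 0.65 and Top2a at 0.60) and 0 lower, a share near the 8.65% of all measured genes, and the summed ratio of 0.35 was 0.06 when every cell was thinned to 5000 UMIs. The growth genes around MYC had a sum of 0.38, with Odc1 (0.73) and Srm (0.63), both of polyamine synthesis, past 1.5-fold. Of 3 measured cholesterol genes, 2 were higher: Insig1, a feedback regulator, at 102 CPM in Ldha-high and 31.9 CPM in Ldha-low cells (1.64, 1.00 to 2.41) and Hmgcs1 at 89.7 CPM in Ldha-high and 56.6 CPM in Ldha-low cells (0.66).

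Stress lists differed little. Dissociation genes had a summed log2 ratio of -0.12 (-0.28 to 0.04), p53 targets 0.05 (-0.12 to 0.22), while the median genes of these lists had 0.24 and -0.10. Heat shock genes had 0.21 (0.17 to 0.25), amino acid stress genes 0.04 (-0.07 to 0.16), and serine and one-carbon genes 0.01 (-0.10 to 0.11). All but the heat shock sum took either sign among the alternative settings. Among the amino acid stress genes Chac1 was higher (72.9 CPM in Ldha-high and 33.4 CPM in Ldha-low cells, 1.10), and in the FGF/ERK list Dusp6, an ERK phosphatase, was higher (94.4 CPM in Ldha-high and 40.6 CPM in Ldha-low cells, 1.20, 0.60 to 1.87). Of the marker lists of other lineages, Id2, which trophectoderm expresses but other cells do too, was higher (86.0 CPM in Ldha-high and 31.9 CPM in Ldha-low cells). Lamc1 (-0.99) and Serpinh1 (-0.70) of the primitive endoderm list and Tead4 (-0.95) of the trophectoderm list were lower.

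The 160 cells with at least 1 UMI of Ldha or Bnip3 were divided by score into 4 steps of 40 cells, beside the 92 cells at 0. Glycolysis summed to 2789 CPM at 0, then to 3156, 3834, 6066 and 6610 CPM from the lowest step to the highest. Most of the difference thus lay between step 2 (scores up to 316 CPM) and step 3 (from 327 CPM). The naive genes stood at 6985 CPM at 0 and then at 6425, 6317, 5038 and 4030 CPM, and the Nodal list at 1078 CPM and then at 1028, 962, 501 and 419 CPM. Median depth at these steps was 8215, 10900, 9546, 11289 and 14565 UMIs, and its part in these sums was not tested. Lef1, a transcription factor of Wnt signalling singled out after its values were seen, stood at 3.96, 4.44, 4.91, 62.3 and 119 CPM. Lef1 was detected in 36.9% of Ldha-high and 2.38% of Ldha-low cells, and 1 cell held 14.0% of its UMIs. After the thinning used for Slc16a3 the shares were 19.7% of 76 Ldha-high and 1.43% of 70 Ldha-low cells. Lef1 was detected in 0 of 425 primitive endoderm and 0 of 374 trophectoderm cells (exact upper limits of 0.864% and 0.981%). Cells of the embryoid library that met the epiblast rule did hold Lef1. Ranked by the same score, they had 40 UMIs in high and 14 in low cells (182 CPM in high and 62.6 CPM in low cells, log2 ratio 1.53).

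**Figure D4:**
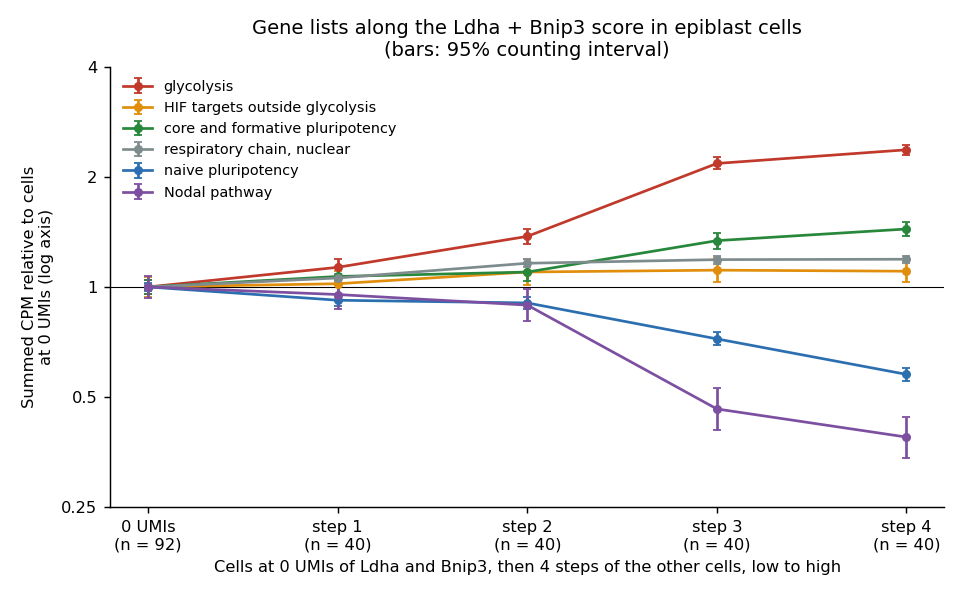
Summed CPM of 6 gene lists relative to the 92 cells with no UMI of Ldha or Bnip3 (log axis, exact 95% Poisson intervals), for these cells and for 4 steps of 40 cells of rising score. Glycolysis ends highest, and naive pluripotency and the Nodal list lowest. For glycolysis, the Nodal list and the core and formative genes the widest change lies between steps 2 and 3.

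With each of 225 cells thinned to 5000 UMIs, Ldha was spread more widely than counting gives, with a variance of 3.23 times its mean. The variance was 3.83 times the mean for Aldoa, 2.49 for Klf4, 2.28 for Tfcp2l1, 1.77 for Pkm and 1.53 for Bnip3. For Cox8a it was 1.24 times the mean, for Atp5a1 1.20 and for Gapdh 1.02. Across these cells the rank correlation of Ldha with the glycolysis sum was 0.64, of Ldha with Bnip3 0.30, and of the score with the naive sum -0.50. These are descriptions over cells that share 1 library, with no test.

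The same score was then used to rank other cells. Mirrored rules gave 425 primitive endoderm and 374 trophectoderm cells of the blastocyst, and the epiblast rule gave 104 cells of the embryoid library, called embryoid epiblast by that rule alone. The median depth of their high and low groups was 11131 and 8222 UMIs in primitive endoderm, 8125 and 8089 UMIs in trophectoderm, and 6444 and 6104 UMIs in embryoid epiblast. Glycolysis had a summed log2 ratio of 1.18 (1.11 to 1.25) in blastocyst epiblast, 1.13 (1.07 to 1.19) in primitive endoderm, 0.50 (0.43 to 0.56) in trophectoderm and 0.72 (0.63 to 0.81) in embryoid epiblast. In primitive endoderm 11 of 12 measured glycolysis genes were higher in the Ldha-high cells and 0 lower, where 5.97% of 4623 genes were higher and 8.28% lower. In trophectoderm 4 of 10 were higher and 0 lower, against 5.05% higher and 5.89% lower among 3702 genes. In embryoid epiblast 4 of 9 were higher and 0 lower, against 4.82% higher and 3.3% lower among 788 genes.

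The pluripotency lists did not go along everywhere. The naive sum had a log2 ratio of -0.64 in blastocyst epiblast, -0.68 (-0.74 to -0.62) in primitive endoderm and -0.76 (-0.94 to -0.58) in embryoid epiblast, but 0.02 (-0.04 to 0.07) in trophectoderm. Tfcp2l1 had -1.79 in primitive endoderm (35.8 CPM in its high and 126 CPM in its low cells) and -2.26 in embryoid epiblast (27.3 CPM in its high and 134 CPM in its low cells). The core and formative sum had 0.45 in blastocyst epiblast and 0.66 (0.50 to 0.82) in embryoid epiblast, against 0.03 in primitive endoderm and -0.35 in trophectoderm. Otx2 stood at 541 CPM in the high and 250 CPM in the low cells of embryoid epiblast (1.11). Markers of other cells moved there too. Fibroblast markers had 36 UMIs in the high and 3 in the low cells of embryoid epiblast (164 CPM in high and 13.4 CPM in low cells, log2 ratio 3.61, 1.95 to 5.95), and primitive endoderm markers stood at 955 CPM in its high and 1770 CPM in its low cells (-0.89, -1.14 to -0.64). Their part in the embryoid values was not tested.

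The Nodal list and Mt1 were also set side by side. In blastocyst epiblast the Nodal list, with 4 measured genes, had a log2 ratio of -1.12 (-1.28 to -0.95), against 0.22 (0.05 to 0.39) in primitive endoderm, -0.07 (-0.26 to 0.13) in trophectoderm and 0.22 (-0.10 to 0.55) in embryoid epiblast. Lefty2 by itself was lower in 3 of the sets: it had -1.86 in blastocyst epiblast, -0.65 (-0.99 to -0.32) in primitive endoderm at 91.6 CPM in high and 144 CPM in low cells, and -1.01 (-1.62 to -0.43) in embryoid epiblast at 168 CPM in high and 340 CPM in low cells. It was the only Nodal gene with 100 UMIs in embryoid epiblast, and trophectoderm held 2 UMIs of it in either group. Mt1 had 1.94 in blastocyst epiblast, against 0.32 in primitive endoderm, -0.02 in trophectoderm and -0.84 in embryoid epiblast. With 1 library of each kind these differences have no test. The HIF targets outside glycolysis had 0.16 in blastocyst epiblast and 0.15 in primitive endoderm, and 0.44 in trophectoderm and 0.76 (0.58 to 0.94) in embryoid epiblast. In embryoid epiblast 1 gene of that list was measured at 100 UMIs or more and it was not called. Bnip3 outnumbered Ldha in trophectoderm (347 and 82.6 CPM over all its cells), so there the same score ranks cells mainly by Bnip3. In embryoid epiblast Ldha stood at 1008 CPM over all cells, against 327 CPM in blastocyst epiblast, and 9 of 104 cells had no UMI of either gene.

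**Figure D5:**
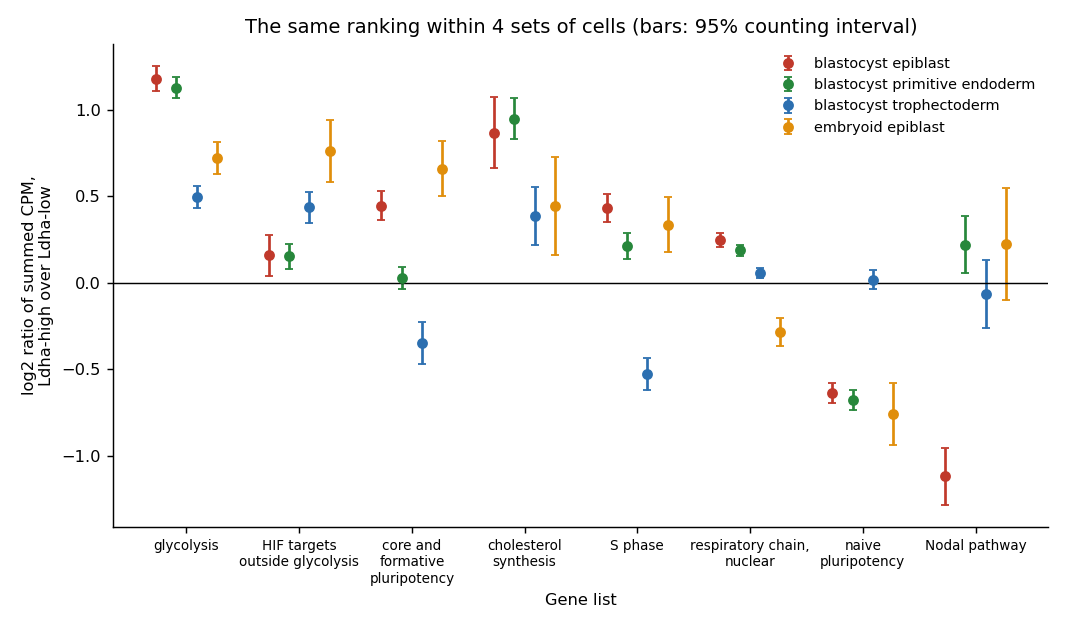
Log2 ratio of the summed CPM of 8 gene lists, Ldha-high over Ldha-low cells, when the same score ranks the cells of blastocyst epiblast, primitive endoderm, trophectoderm and embryoid epiblast, with exact 95% intervals. Glycolysis is above 0 in all 4 sets, naive pluripotency is below 0 in all but trophectoderm, and the Nodal list is below 0 in blastocyst epiblast, above 0 in primitive endoderm, and has intervals that span 0 in trophectoderm and embryoid epiblast.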

How the data were processed

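The deposited files give raw UMI counts per gene symbol and cell barcode, made by the authors. The submitters' processing notes name STAR 2.7.1a, featureCounts 1.6.4 of Subread, UMI-tools 1.0.1, bcl2fastq 2.19.1.403 and the build mm10; settings, gene annotation and cell calling were not given in the sources used here. Blastocysts gave 1288 barcodes and 11047555 UMIs, and embryoids 5546 barcodes and 28923930 UMIs; 9 barcodes occur in both.

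Counts were summed over the cells of a group and scaled to CPM without Ldha and Bnip3. Ratios are log2 of CPM+1 for genes and log2 of summed CPM for lists, with exact conditional binomial intervals; levels have exact Poisson and shares exact Clopper-Pearson 95% intervals. Ties of the score were broken by barcode. A gene was counted with at least 100 UMIs over the Ldha-high and Ldha-low cells and called past 1.5-fold. Named genes are the 12 highest and 12 lowest with at most 10% of their UMIs in 1 cell (no mitochondrial, ribosomal, Gm or Rik names and no rule genes), all glycolysis and HIF genes, and up to 4 genes of each other list with at least 100 UMIs. Further members of the pluripotency lists, and Gm5506, Lef1, Socs3, Lin28a and Hmga2, were named after their values were seen. The 28 lists held 364 entries, of which 353 matched a symbol. The members and lists were chosen with earlier results of these data known. Doublets were called with Scrublet and kept. The interval was tested only on simulated counts with Poisson error, drawn from the totals of the Ldha-high and Ldha-low cells. These hold no spread among cells beyond counting, so the test cannot show coverage where cells vary more. The alternatives were 17 planned settings and 4 added after seeing the data. Tools were scanpy 1.11.5, scipy 1.17.1, pandas 2.3.3, numpy 2.4.6 and matplotlib 3.10.9 in Python 3.11.15.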

Additional observations from a re-analysis of the deposited data

How the results depend on the processing

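No paired analysis was possible because each library is the only sample of its kind. Across the alternatives run, the summed glycolysis, HIF target and naive ratios kept their sign: glycolysis lay between 0.73 and 1.21, the HIF targets between 0.08 and 0.50 (0.50 without Ak4, 0.18 or less otherwise), and the naive genes between -0.76 and -0.38. Glycolysis was 1.10 with cells thinned to 5000 UMIs, 1.00 ranked within depth bins, 1.07 within bins of mitochondrial share, 1.10 ranked by Ldha alone and 0.73 by Bnip3 alone. The naive ratio at these settings was -0.53, -0.49 and -0.55, and -0.38 by Bnip3 alone; it was -0.55 with the mean of per-cell CPM, -0.76 with the top and bottom 63 cells and -0.71 with a mitochondrial share of at most 10%. Counts of genes depended most on the filter: 290 higher and 347 lower became 778 and 1476 at 20 UMIs per gene, 3463 and 3995 with no filter, 128 and 94 with cells thinned and 124 and 190 by Bnip3 alone; 168 were higher within depth bins and 212 lower at a mitochondrial share of at most 10%. The share of higher among all called genes was 45.5%, against 34.5% at 20 UMIs per gene and 57.7% with cells thinned. Of 1859 values of 93 other results, 1679 moved by less than their interval, 178 moved more and 2, past 1.5-fold at first, took the other sign: Nr5a2 (0.18 with cells thinned) and the blood markers (-0.61 by Bnip3 alone, against 0.69 from 5 and 2 UMIs). Counting values of any size, 18 of the 93 took the other sign under at least 1 alternative, among them Nodal, Arnt, Kdm3a, Dnmt1 and Dppa5a. The cause was not tested. Taking all 92 cells at 0 as Ldha-low, breaking ties in reverse and leaving out shared barcodes, chosen after seeing the data, gave 284, 297 and 295 higher and 373, 351 and 359 lower genes. With 1 library, neither embryo nor library effects can be told apart from the cells' own differences, and genes under 100 UMIs are limited by counts.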

Other observations

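Stat3, the transcription factor that relays LIF signals, stood at 46.7 CPM in Ldha-high, 126 CPM in intermediate and 151 CPM in Ldha-low cells (log2 ratio -1.67, -2.21 to -1.19). Socs3, a feedback target of the same pathway looked up after that value was seen, had 10, 48 and 38 UMIs in the same order (9.34, 54.1 and 55.1 CPM; -2.44, -3.73 to -1.53, Ldha-high over Ldha-low). Klf4 and Tfcp2l1, described above, are targets of that pathway too. Lin28a, an RNA-binding protein of pluripotent cells also looked up afterwards, stood at 235 CPM in Ldha-high and 131 CPM in Ldha-low cells (0.85, 0.50 to 1.21), and Hmga2, a chromatin protein gene, at 270 CPM in Ldha-high and 450 CPM in Ldha-low cells (-0.73, -0.97 to -0.50).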
